A study of Drosophila melanogaster with 18 samples.

Results

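Hsf, Hsp83 and 7 further chaperone or co-chaperone genes were followed across temperature and histone variant depletion in S2R+ cells. Most of these genes are expressed without heat shock, and DnaJ-1 is also heat-inducible. S2R+ cells grow attached and were first isolated from embryos of Drosophila melanogaster. The 9 genes were chosen by name (Hsf, Hsp83, Hsc70-4, Hsc70-5, Hsc70Cb, Hsp60A, DnaJ-1, stv and Droj2, matched through their locus tags) and were measured by 21 of the 32162 probes on a one-colour Agilent array, which carried probes for 13059 gene symbols. The 18 arrays fell into 6 groups of 3 replicates. Cells had been treated with 30 µg of double-stranded RNA against lacZ, a bacterial gene that serves as control, or against H2Av, which encodes the H2A.Z-type histone variant of the fly. They were then kept for 24 h at 14 °C, 25 °C or 30 °C. All groups thus shared the cell line, the double-stranded RNA treatment and the time at the final temperature. The study describes the replicates as replicate experiments and biological replicates, while the labels do not say whether they were separate cultures. All p-values measure the spread between these samples.

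Molecular chaperones bind unfolded proteins and release them after rounds of ATP hydrolysis. Hsp70 proteins receive clients from J-domain proteins, which speed up their ATPase, and are reset by nucleotide exchange factors such as Hsp110 and BAG-domain proteins, while Hsp90 takes over clients at a later stage of folding. In mitochondria, a dedicated Hsp70 and the Hsp60 chaperonin do this work for imported proteins. Heat shock factor (Hsf), the transcription factor of the heat shock response, is kept inactive in unstressed cells by chaperones and is switched on after translation, by trimerization and binding to heat shock elements. No sequence of these genes or of their probes was used here.

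Several facts of the whole experiment bear on the values below. His2Av, the targeted gene, was lower on all H2Av RNAi arrays: its first probe ran from 11.61 to 13.82 on the log2 scale against 15.04 to 16.41 on the lacZ RNAi arrays, and its second probe from 8.05 to 10.94 against 13.24 to 14.94. Between 56.2% and 67.0% of the spots on an array were well above background, and no spot was saturated. The 3 arrays of a group shared 1 slide that held no other group, and slides were scanned in order of temperature, so slide, scan and group cannot be told apart. All 7 blood cell marker genes listed for this line, such as Pxn and srp, were well above background on all 18 arrays, but so were 6 of the 8 markers of other cell types (elav, nSyb, Mhc, Mlc2, vas and bam). Fbp1 passed on 17 arrays and Lsp2 on 0. The summed level of the blood cell markers (log2) lay between 14.43 and 16.02 on all arrays, with no separation of temperatures. That of the 2 muscle markers lay between 9.90 and 10.76 at 14 °C and between 8.38 and 9.77 at the warmer temperatures, and its part in the results below was not tested. Within groups, 2 arrays stood apart: replicate 1 of lacZ RNAi at 25 °C and replicate 2 of lacZ RNAi at 30 °C, which received quality weights of 0.12 and 0.18.

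Values are log2 of the array signal after quantile normalization, and levels are compared between groups for the same probe, never between probes. Of the 21 probes, 20 passed the detection filter, which kept 21774 probes on the array. The exception was the second probe of stv, A_09_P225520, which did not stand well above background anywhere. Each gene is represented by its detected probe with the highest mean signal. A gene was called changed where limma's moderated test, adjusted by Benjamini-Hochberg over all 21774 probes, gave an adjusted p below 0.05. Changes are given as warmer minus cooler and as H2Av minus lacZ RNAi, with standard errors (SE) and n = 3 arrays per group.

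**Figure D1:**
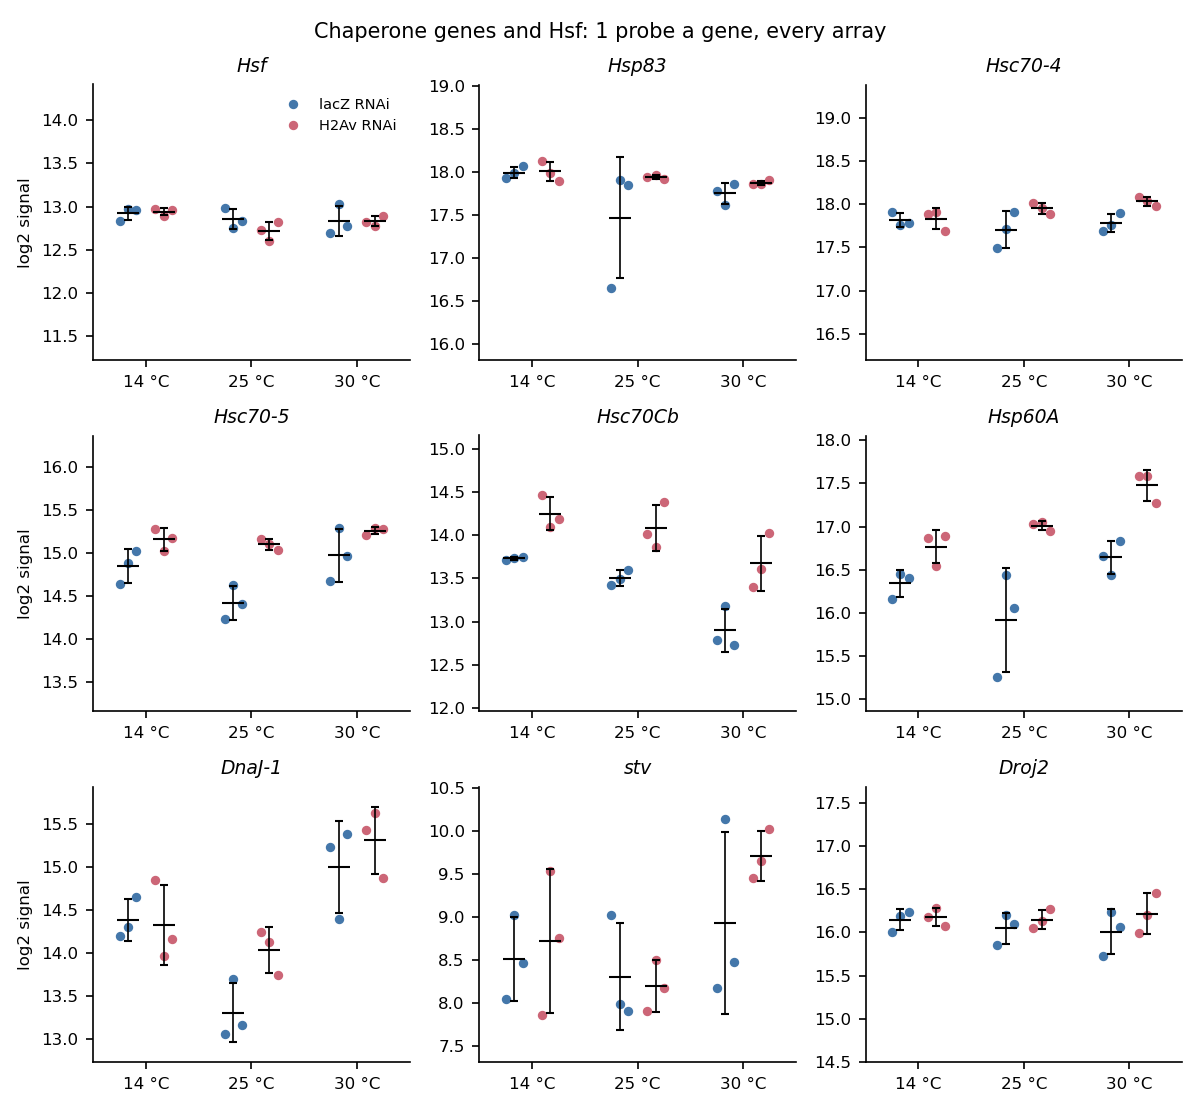
Normalized log2 signal (y axis, each panel spanning 3.2 units) of the representative probe of each of the 9 genes at 14 °C, 25 °C and 30 °C (x axis). Points are single arrays, blue for lacZ RNAi and red for H2Av RNAi, and bars give mean ± SD of 3 arrays. Hsf, Hsc70-4 and Droj2 lie nearly level, Hsc70Cb declines with temperature, and DnaJ-1 is lowest at 25 °C and highest at 30 °C in both RNAi groups.

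Hsf itself hardly moved on its representative probe, while its other probe differed. Its representative probe, A_09_P118690, read 12.84, 12.98 and 12.96 on the 3 lacZ RNAi arrays at 14 °C, 12.99, 12.76 and 12.83 at 25 °C, then 12.69, 13.03 and 12.77 at 30 °C. In H2Av RNAi cells it read 12.97, 12.89 and 12.96 at 14 °C, 12.73, 12.61 and 12.82 at 25 °C, then 12.83, 12.78 and 12.89 at 30 °C. The lacZ RNAi groups overlapped, while with H2Av RNAi the 14 °C arrays lay just above the warmer ones. The 6 group means spanned 0.22, which placed the range at the lowest 0.6% of the tested probes (median over 21758 probes without missing values, 1.27). From 14 °C to 30 °C the Hsf signal differed by -0.09 (SE 0.13, 95% interval -0.36 to 0.18, limma adjusted p = 0.62) in lacZ RNAi cells and by -0.11 (SE 0.13, -0.38 to 0.16, adjusted p = 0.52) in H2Av RNAi cells.

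The other Hsf probe, A_09_P042781, did not follow this flat course. It read 12.53, 12.56 and 12.71 in lacZ RNAi cells at 14 °C, 12.21, 12.22 and 11.87 at 25 °C, then 12.85, 12.34 and 12.73 at 30 °C. In H2Av RNAi cells it read 12.88, 12.40 and 12.28 at 14 °C, 12.56, 12.31 and 12.30 at 25 °C, then 13.16, 13.11 and 12.73 at 30 °C. The 30 °C arrays thus lay above all 25 °C arrays in either RNAi group, by 0.54 (SE 0.19, adjusted p = 0.073) with lacZ RNAi and by 0.61 (SE 0.19, adjusted p = 0.054) with H2Av RNAi. With replicate number as a block, the rise in H2Av RNAi cells passed the threshold both from 25 °C (adjusted p = 0.035) and from 14 °C (0.48, adjusted p = 0.0426). It also did so with a block within each RNAi group (adjusted p = 0.0441 and 0.0484). Single arrays decided the unblocked calls as well. The rise from 25 °C was 0.69 (adjusted p = 0.0225) with lacZ RNAi without replicate 2 at 30 °C and 0.74 (adjusted p = 0.0437) with H2Av RNAi without replicate 3 at 30 °C. That from 14 °C with H2Av RNAi was 0.66 (adjusted p = 0.0192) without replicate 1 at 14 °C and 0.62 (adjusted p = 0.0374) without replicate 3 at 30 °C. Averaged over both RNAi groups, a comparison added after the values had been seen, this probe was 0.58 higher at 30 °C than at 25 °C (SE 0.14, 1.49-fold, adjusted p = 0.00755), and it kept this call without any single array. As the median of both probes, Hsf was called higher at 30 °C than at 25 °C in that average (0.31, adjusted p = 0.0217). Across the 18 arrays the 2 Hsf probes had a Pearson correlation of -0.09, so the array gives no single answer for Hsf between 25 °C and 30 °C.

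Hsp83, the cytosolic Hsp90 of the fly and itself a known Hsf target, passed the test in none of the 9 pairwise comparisons. Its representative probe read 17.93, 17.98 and 18.06 in lacZ RNAi cells at 14 °C, 16.66, 17.90 and 17.84 at 25 °C, then 17.78, 17.62 and 17.86 at 30 °C. In H2Av RNAi cells all 9 arrays lay between 17.86 and 18.13. Apart from replicate 1 of lacZ RNAi at 25 °C, the arrays lay between 17.62 and 18.13. The change from 14 °C to 30 °C was -0.24 (SE 0.24, 95% interval -0.76 to 0.28, adjusted p = 0.49) with lacZ RNAi, where all 30 °C arrays were below all 14 °C arrays, and -0.13 (SE 0.24, -0.65 to 0.39, adjusted p = 0.71) with H2Av RNAi. Without replicate 2 of lacZ RNAi at 25 °C, which leaves the low array with more weight, Hsp83 was called lower at 25 °C than at 14 °C with lacZ RNAi (-0.74, adjusted p = 0.0405) and higher with H2Av than with lacZ RNAi at 25 °C (0.69, adjusted p = 0.0453). The other probe, A_09_P190340, was called lower at 25 °C than at 14 °C with lacZ RNAi in several alternatives. It gave -2.02 (adjusted p = 0.0476) in the deposited table, -1.98 (0.0487) with normexp background correction, -2.25 (0.0456) with 75th percentile scaling and -1.49 (0.0302) with array weights. It was also called higher from 25 °C to 30 °C with array weights (1.62, 0.0162). Neither call was made without both arrays that stood apart.

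Among the cytosolic Hsp70 system, Hsc70-4, the main constitutive Hsp70, changed little on its representative probe. Over the 18 arrays it ranged from 17.49 to 18.09, both extremes being single arrays of lacZ RNAi at 25 °C and H2Av RNAi at 30 °C, and its 6 group means spanned 0.33. In none of the 9 pairwise comparisons did it pass the test (smallest adjusted p = 0.18). Droj2, a DnaJA-type J-domain co-chaperone, was not called either (smallest adjusted p = 0.49), with group means between 16.01 and 16.22. The range of group means lay at the lowest 0.5% of the tested probes for Droj2 and the lowest 2.2% for Hsc70-4. These are bright probes, at percentiles 97.6 and 99.4 of signal, and they were not ranked against equally bright ones. Over the 18 arrays the representative probes ranged over 0.73 for Droj2 and 0.6 for Hsc70-4. The dimmest probes of these genes ranged over 3.61 and 4.8, with the drops on single arrays given below. Between H2Av and lacZ RNAi at 25 °C, Hsc70-4 was called higher with 75th percentile scaling (0.69, adjusted p = 0.035). That scaling itself moved the median of all probes there by 0.428. Both other probes of Hsc70-4 were called higher there with array weights (1.40, adjusted p = 0.0378, and 1.52, 0.0261). Neither was called there without both arrays that stood apart.

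Hsc70Cb, an Hsp110 protein that resets Hsp70 by nucleotide exchange, went down with temperature. Its representative probe read 13.72, 13.73 and 13.75 in lacZ RNAi cells at 14 °C, 13.42, 13.49 and 13.60 at 25 °C, then 12.79, 13.18 and 12.73 at 30 °C. The 3 lacZ RNAi groups did not overlap. With H2Av RNAi it read 14.46, 14.10 and 14.19 at 14 °C, 14.02, 13.87 and 14.38 at 25 °C, then 13.40, 13.60 and 14.02 at 30 °C.

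From 14 °C to 30 °C Hsc70Cb fell by 0.83 (SE 0.19, 1.78-fold, adjusted p = 0.0037) in lacZ RNAi cells, a call that was lost only where a 2-fold change was also asked for. In H2Av RNAi cells it fell by 0.58 (SE 0.19, 1.49-fold, adjusted p = 0.0257). The latter was not called without replicate 1 of the 14 °C group (adjusted p = 0.0991) or without replicate 1 (0.117) or replicate 2 (0.0781) of the 30 °C group, nor as the median of both probes of the gene (-0.38, adjusted p = 0.338). The second step, from 25 °C to 30 °C, amounted to -0.61 (SE 0.19, adjusted p = 0.0437) with lacZ RNAi and to -0.41 (SE 0.19, adjusted p = 0.17) with H2Av RNAi. The former was lost without any single array of the 2 groups except replicate 2 at 30 °C (highest adjusted p of these, 0.16), and the median of both probes turned its direction (0.12, adjusted p = 0.798). Averaged over both RNAi groups, the decline from 14 °C to 30 °C was -0.71 (SE 0.13, 1.63-fold, adjusted p = 0.00052). The second probe of the gene, A_09_P191530, gave -0.99 (SE 0.61, adjusted p = 0.24) in lacZ RNAi cells and -0.18 (SE 0.61, adjusted p = 0.84) in H2Av RNAi cells.

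DnaJ-1, the heat-inducible Hsp40 of the fly, was the member with the widest swings. Its representative probe, A_09_P219870, read 14.19, 14.31 and 14.65 in lacZ RNAi cells at 14 °C, 13.07, 13.70 and 13.16 at 25 °C, then 15.23, 14.39 and 15.38 at 30 °C. In H2Av RNAi cells it read 14.85, 13.96 and 14.16 at 14 °C, 14.24, 14.13 and 13.74 at 25 °C, then 15.43, 15.62 and 14.87 at 30 °C. The group mean was thus lowest at 25 °C and highest at 30 °C in both RNAi groups, although 14 °C and 25 °C overlapped with H2Av RNAi, and the 25 °C and 30 °C arrays did not overlap in either.

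The rise of DnaJ-1 from 25 °C to 30 °C was 1.69 (SE 0.30, 3.23-fold, adjusted p = 0.0033) with lacZ RNAi and 1.27 (SE 0.30, 2.41-fold, adjusted p = 0.0154) with H2Av RNAi. The former was not called when only the arrays compared were fitted (adjusted p = 0.156). The latter was not called without replicate 3 of the 25 °C group (adjusted p = 0.0678) or without replicate 1 (0.0592) or 2 (0.0717) of the 30 °C group. From 14 °C to 25 °C it fell by 1.08 (SE 0.30, 2.11-fold, adjusted p = 0.0227) with lacZ RNAi, where adjusted p rose to between 0.0533 and 0.0895 without replicate 2 or 3 at 14 °C or replicate 1 or 3 at 25 °C, and the change with H2Av RNAi was -0.28 (SE 0.30, adjusted p = 0.62). The 30 °C level also exceeded that at 14 °C, by 0.98 (SE 0.30, 1.98-fold, adjusted p = 0.0197) with H2Av RNAi, a call lost without replicate 2 or 3 at 14 °C or replicate 1 or 2 at 30 °C (adjusted p 0.0611 to 0.0853). With lacZ RNAi this difference was 0.62 (SE 0.30, adjusted p = 0.14), and 0.92 (adjusted p = 0.0316) without replicate 2 of the 30 °C group, 1 of the 2 arrays that stood apart. Between H2Av and lacZ RNAi at 25 °C DnaJ-1 differed by 0.73 (SE 0.30, adjusted p = 0.0882), and by 0.92 (adjusted p = 0.0465) without replicate 2 of lacZ RNAi.

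The 3 probes of DnaJ-1 differed in the step from 14 °C to 25 °C. A_09_P179260 followed the representative probe closely (Pearson r = 0.99 over 18 arrays), with -0.97 (SE 0.29, adjusted p = 0.028) in lacZ RNAi cells, a call lost without replicate 2 or 3 at 14 °C or replicate 1 or 3 at 25 °C (adjusted p 0.0519 to 0.111). A_09_P031121 read 13.63, 13.91 and 14.12 in lacZ RNAi cells at 14 °C, 14.31, 14.12 and 14.17 at 25 °C, then 14.28, 15.02 and 14.56 at 30 °C, so no dip was seen. It differed by 0.31 between 14 °C and 25 °C (SE 0.20, adjusted p = 0.28). All 3 probes rose between 14 °C and 30 °C in the mean of both RNAi groups, by 0.80 (SE 0.22), 0.82 (SE 0.20) and 0.89 (SE 0.14), with adjusted p of 0.0065, 0.0039 and 0.00014. They also rose together from 25 °C to 30 °C in that mean, by 1.48, 1.44 and 0.64. Both sets of calls held without any single array, whereas the low point at 25 °C was a matter of 2 probes of the 3.

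**Figure D2:**
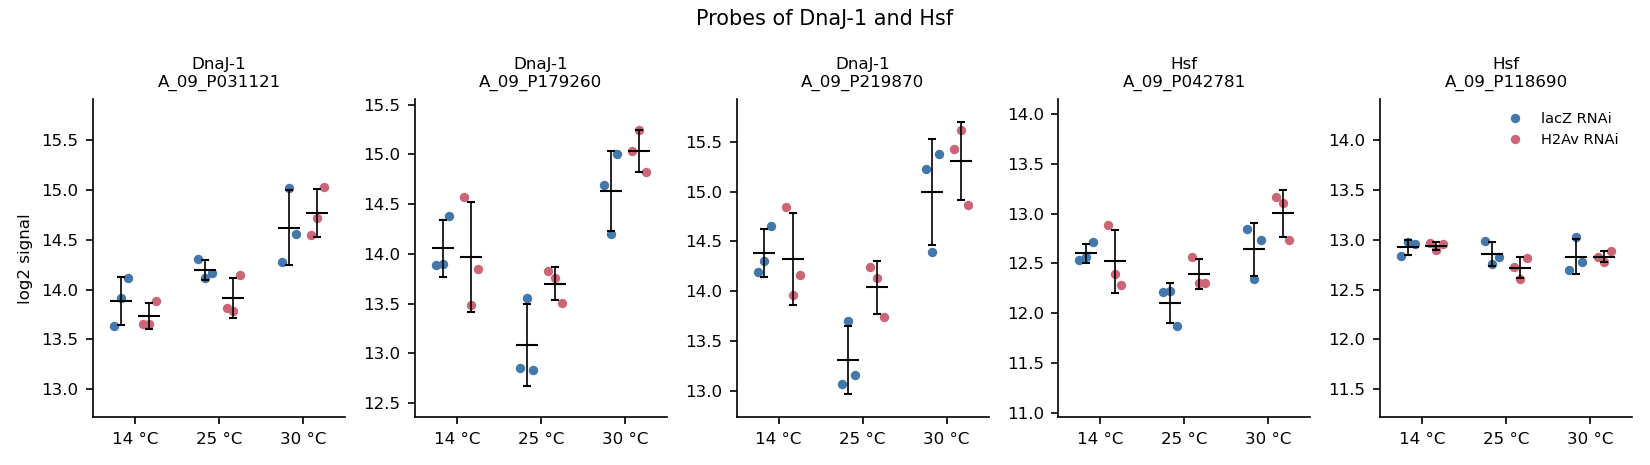
Normalized log2 signal (y axis, 3.2 units in each panel) of the 3 probes of DnaJ-1 and the 2 probes of Hsf at 14 °C, 25 °C and 30 °C (x axis), with single arrays as points (blue, lacZ RNAi; red, H2Av RNAi) and mean ± SD of 3 arrays as bars. DnaJ-1 dips at 25 °C on 2 probes and not on A_09_P031121, and of the 2 Hsf probes A_09_P042781 has all 30 °C arrays above the 25 °C arrays of the same RNAi group, while A_09_P118690 has overlapping ones.

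For stv (starvin), a BAG-domain co-chaperone that works with Hsp70, the detected probe A_09_P014671 scattered more widely than any other representative probe (SD within groups, 0.66). It read 8.05, 9.02 and 8.47 in lacZ RNAi cells at 14 °C, 9.03, 7.99 and 7.91 at 25 °C, then 8.17, 10.14 and 8.48 at 30 °C. In H2Av RNAi cells it read 7.86, 9.53 and 8.76 at 14 °C, 7.90, 8.50 and 8.17 at 25 °C, then 9.45, 9.65 and 10.02 at 30 °C. Only with H2Av RNAi did the 30 °C arrays stand clear of the 25 °C arrays, by 1.51 (SE 0.50, adjusted p = 0.065), which passed the threshold with replicate number as a block over all arrays (adjusted p = 0.042) but not with a block within each RNAi group (adjusted p = 0.0571). The high value with lacZ RNAi at 30 °C belonged to replicate 2, an array that stood apart. In the mean of both RNAi groups stv was 1.07 higher at 30 °C than at 25 °C (SE 0.36, 2.09-fold, adjusted p = 0.0384), a call that was lost when any of 9 of the 12 arrays was left out (adjusted p up to 0.0868, lowest value 0.76 without replicate 2 of lacZ RNAi at 30 °C).

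Hsp60A, the mitochondrial chaperonin, had more signal after H2Av RNAi. It read 16.16, 16.45 and 16.41 in lacZ RNAi cells at 14 °C, 15.25, 16.44 and 16.05 at 25 °C, then 16.66, 16.44 and 16.83 at 30 °C. In H2Av RNAi cells it read 16.87, 16.54 and 16.89 at 14 °C, 17.02, 17.05 and 16.95 at 25 °C, then 17.58, 17.58 and 17.27 at 30 °C. All H2Av RNAi arrays lay above all lacZ RNAi arrays of the same temperature.

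Hsp60A was 1.10 higher (SE 0.24, 2.14-fold, adjusted p = 0.0047) after H2Av RNAi than after lacZ RNAi at 25 °C and 0.83 higher (SE 0.24, 1.78-fold, adjusted p = 0.0335) at 30 °C, while the difference at 14 °C was 0.43 (SE 0.24, adjusted p = 0.32). At 25 °C replicate 1 of lacZ RNAi read only 15.25. Over the alternatives the difference at 25 °C was 0.77 at its lowest, which is less than 2-fold. The call at 30 °C was lost without replicate 1 or 2 of either group (adjusted p 0.0806 to 0.114). As the median of a gene's probes, the differences were 2.31 at 25 °C (adjusted p = 0.0587) and 1.72 at 30 °C (adjusted p = 0.228). With temperature, Hsp60A rose in H2Av RNAi cells by 0.71 from 14 °C to 30 °C (SE 0.24, 1.64-fold, adjusted p = 0.0287), a call lost without replicate 2 at 14 °C (0.107) or replicate 1 (0.0846) or 2 (0.0872) at 30 °C, and under 75th percentile scaling (0.43, adjusted p = 0.148) or as the median of its probes (1.11, adjusted p = 0.329). The corresponding change with lacZ RNAi was 0.30 (SE 0.24, adjusted p = 0.37). From 25 °C to 30 °C Hsp60A differed by 0.73 with lacZ RNAi (SE 0.24, adjusted p = 0.0517), with no overlap, and this passed without replicate 2 at 25 °C (0.99, adjusted p = 0.00998) or replicate 2 at 30 °C (0.83, adjusted p = 0.0319). The fit without replicate 2 at 25 °C leaves the low replicate 1 of lacZ RNAi (15.25) with more weight. In that fit the change from 14 °C to 25 °C also passed (-0.69, adjusted p = 0.0364).

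Hsc70-5, the mitochondrial Hsp70, read 14.64, 14.88 and 15.03 in lacZ RNAi cells at 14 °C, 14.23, 14.62 and 14.40 at 25 °C, then 14.67, 15.29 and 14.96 at 30 °C. In H2Av RNAi cells it read 15.28, 15.02 and 15.18 at 14 °C, 15.16, 15.10 and 15.03 at 25 °C, then 15.21, 15.29 and 15.28 at 30 °C. The H2Av RNAi arrays thus barely moved with temperature, and the lacZ RNAi arrays were lowest at 25 °C. There the gene was 0.68 higher with H2Av RNAi (SE 0.17, 1.60-fold, adjusted p = 0.0096), with no overlap between the groups, against 0.31 (SE 0.17, adjusted p = 0.31) at 14 °C and 0.29 (SE 0.17, adjusted p = 0.32) at 30 °C. In lacZ RNAi cells Hsc70-5 rose by 0.55 from 25 °C to 30 °C (SE 0.17, 1.47-fold, adjusted p = 0.0396). This call was lost without replicate 1 (0.0984) or 3 (0.0902) at 25 °C and without replicate 2 (0.0826) or 3 (0.105) at 30 °C. It was 0.26 (adjusted p = 0.265) with 75th percentile scaling and 0.30 (adjusted p = 0.174) without both arrays that stood apart. The change from 14 °C to 25 °C was -0.43 (SE 0.17, adjusted p = 0.0815), and -0.53 (adjusted p = 0.046) without replicate 2 at 25 °C.

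Hsc70Cb was the third gene with more signal after H2Av RNAi. The difference was 0.58 at 25 °C (SE 0.19, 1.50-fold, adjusted p = 0.034) and 0.78 at 30 °C (SE 0.19, 1.71-fold, adjusted p = 0.0151), and 0.52 at 14 °C (SE 0.19, adjusted p = 0.11), with no overlap between the RNAi groups at any temperature. The call at 25 °C was lost without replicate 1 (adjusted p = 0.0901) or 2 (0.0547) of lacZ RNAi or replicate 1 (0.0689) or 3 (0.136) of H2Av RNAi, and with 75th percentile scaling (0.51, adjusted p = 0.0657). That at 30 °C was lost without replicate 1 (0.058) or 3 (0.0621) of lacZ RNAi or replicate 3 (0.0686) of H2Av RNAi. Averaged over the 3 temperatures, a comparison added after the values had been seen, Hsp60A was 0.79 higher (SE 0.14, adjusted p = 0.00052), Hsc70Cb 0.63 higher (SE 0.11, adjusted p = 0.0005) and Hsc70-5 0.43 higher (SE 0.10, adjusted p = 0.0035). These calls were lost where a 2-fold change was also asked for and held under each of 27 other alternatives. The other 6 genes were not called in that average, their differences running from -0.04 for Hsf to 0.32 for DnaJ-1. Hsc70-4 came nearest (0.17, SE 0.08, adjusted p = 0.101) and was called without replicate 3 of lacZ RNAi at 25 °C (0.20, adjusted p = 0.0481), with normexp background correction (0.21, adjusted p = 0.0385), in the deposited table (0.22, adjusted p = 0.0449) and with 75th percentile scaling (0.49, adjusted p = 0.0101). In 2 alternatives stv was called higher in that average. These were the fit without both arrays that stood apart (0.61, adjusted p = 0.0457) and array weights (0.57, 0.0277). At 30 °C alone the same 2 alternatives called stv higher with H2Av RNAi, by 1.38 (adjusted p = 0.0288) and 1.15 (0.00453).

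**Figure D3:**
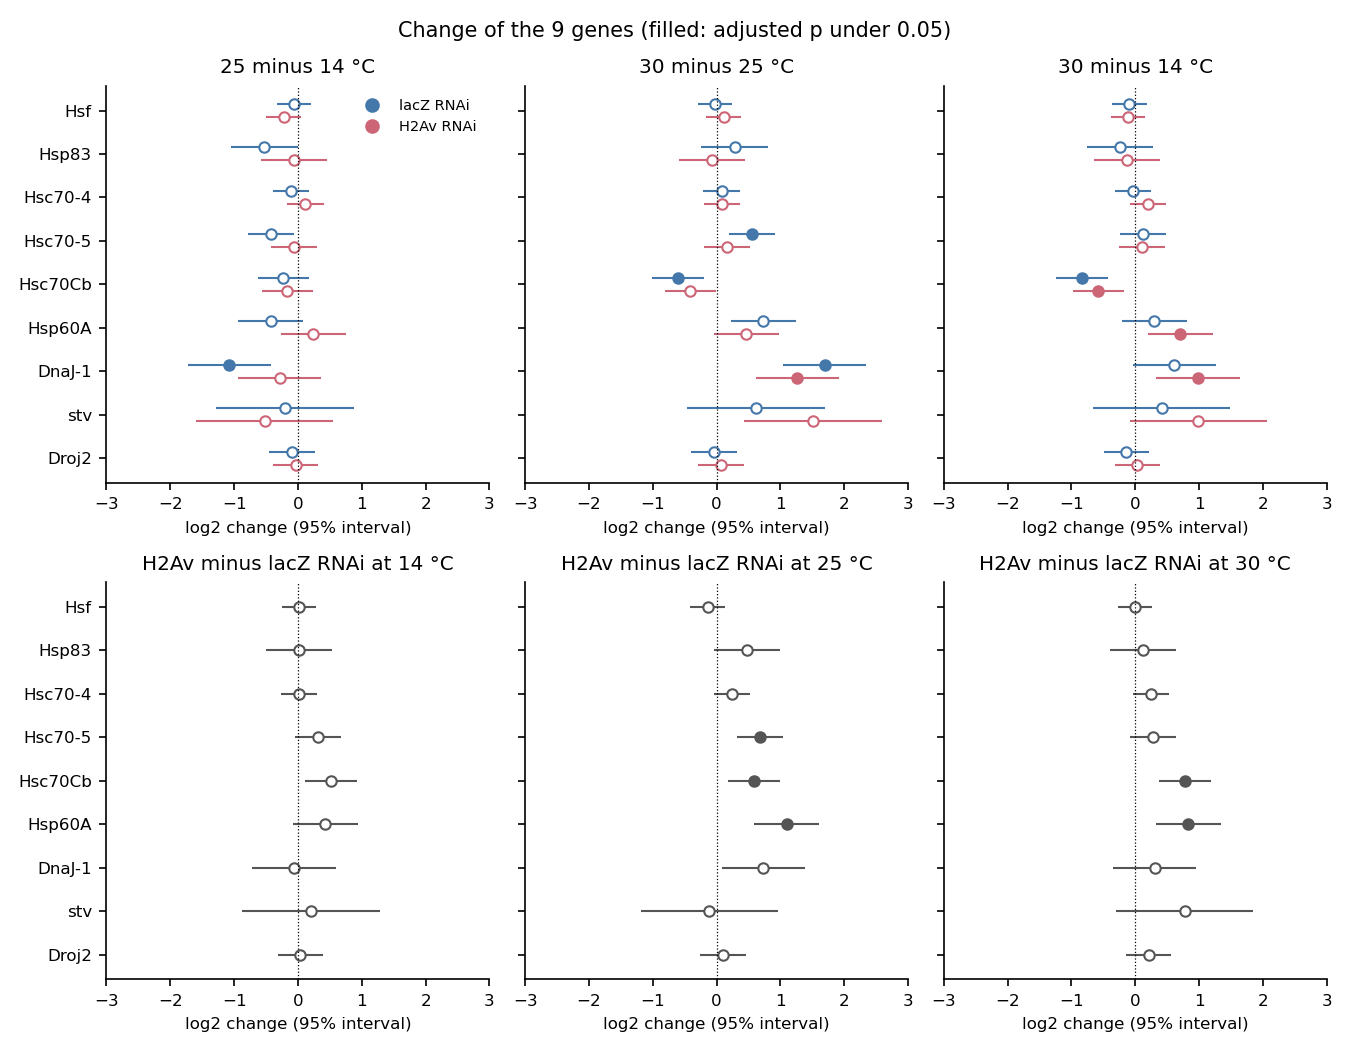
Change in log2 signal (x axis) of the representative probe of each gene (y axis), with 95% intervals; filled points had a limma adjusted p below 0.05. The upper panels compare temperatures within lacZ RNAi (blue) and H2Av RNAi (red), and the lower panels compare H2Av with lacZ RNAi at each temperature. All filled points of the lower panels lie to the right of 0, and Hsc70Cb is the only gene with filled points to the left of 0 between 14 °C and 30 °C.

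The calls over the 9 genes were read against those of the whole array. Between 14 °C and 30 °C, 1 gene (Hsc70Cb, lower) was called with lacZ RNAi and 3 (DnaJ-1 and Hsp60A higher, Hsc70Cb lower) with H2Av RNAi, where 31.9% and 38.4% of all tested probes were called. Between 14 °C and 25 °C the counts were 1 (DnaJ-1, lower) and 0, against 21.6% and 13.3% of probes. For the 0, no representative probe had an unadjusted limma p below 0.05. Between 25 °C and 30 °C they were 3 (DnaJ-1 and Hsc70-5 higher, Hsc70Cb lower) and 1 (DnaJ-1, higher), against 15.2% and 12% of probes.

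Between H2Av and lacZ RNAi, no gene passed at 14 °C (0 of 9, beside 7.23% of probes). At 25 °C 3 genes passed (27.2% of probes) and 2 did so at 30 °C (12.2% of probes), all higher with H2Av RNAi. In the 14 °C comparison, Hsc70Cb alone had an unadjusted limma p below 0.05. In the averages over the other factor, 3 genes were called from 14 °C to 30 °C (50.4% of probes), 1 from 14 °C to 25 °C (29.2%), 5 from 25 °C to 30 °C (27%) and 3 between the RNAi groups (35.9%). The 5 were DnaJ-1, Hsp60A, Hsc70-5 and stv, higher at 30 °C, and Hsc70Cb, lower. Of these, Hsc70-5 (0.36, SE 0.12, adjusted p = 0.0382) was lost without any of 10 of the 12 arrays (adjusted p up to 0.081). Hsp60A from 14 °C to 30 °C (0.51, SE 0.17, adjusted p = 0.0213) was lost without replicate 1 of lacZ RNAi or replicate 2 of H2Av RNAi at 14 °C or replicate 3 of lacZ RNAi at 30 °C (adjusted p 0.0515 to 0.0542). With 75th percentile scaling these averages were 0.18 (adjusted p = 0.287) and 0.24 (adjusted p = 0.226). As the median of a gene's probes, Hsc70Cb gave -0.06 (adjusted p = 0.846) and Hsp60A 1.12 (adjusted p = 0.184) from 25 °C to 30 °C. DnaJ-1 from 14 °C to 25 °C (-0.68, SE 0.22, adjusted p = 0.0287) was lost without any of 5 arrays (adjusted p up to 0.0755), namely replicate 3 of lacZ RNAi or replicate 1 of H2Av RNAi at 14 °C and replicate 1 or 3 of lacZ RNAi or replicate 3 of H2Av RNAi at 25 °C. With 9 genes, 1 call is 11.1% and 3 calls are 33.3%. From 14 °C the shares lay at or below those of the array, and from 25 °C to 30 °C they lay above it with lacZ RNAi (33.3%) and in the average (55.6%), which with so few genes is a description only. Medians over the 9 genes lay near those of all probes for 14 °C to 30 °C, at -0.03 and 0.10 with lacZ and H2Av RNAi (all probes, 0.01 and 0.03). With lacZ RNAi they were -0.23 from 14 °C to 25 °C (all probes, -0.02) and 0.28 from 25 °C to 30 °C (all probes, 0.00), and without replicate 1 at 25 °C they were -0.13 and 0.04. Between H2Av and lacZ RNAi the median was 0.04 at 14 °C (all probes, -0.03), 0.48 at 25 °C (all probes, 0.02), 0.29 at 30 °C (all probes, 0.02) and 0.29 in the average (all probes, 0.01). The value at 25 °C was 0.24 without replicate 1 of lacZ RNAi.

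Whether the temperature response itself depended on H2Av was tested as an interaction, and 0 of the 9 genes were called for any of the 3 temperature steps, with 0 representative probes at an unadjusted limma p below 0.05. Over the array, 0.409% of probes were called for the step from 14 °C to 30 °C, 0.00919% for that from 14 °C to 25 °C and 0.795% for that from 25 °C to 30 °C. The widest departures among the 9 genes were 0.89 for stv (SE 0.71, 95% interval -0.63 to 2.41, 25 °C to 30 °C) and 0.79 for DnaJ-1 (SE 0.43, -0.13 to 1.71, 14 °C to 25 °C). Intervals of that width leave differences of more than 2-fold between the RNAi groups undecided.

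Most of the 11 other probes of the 9 genes dropped on single arrays. On replicate 1 of lacZ RNAi at 25 °C, 9 of the 11 other probes lay more than 1 unit below their own mean over the 18 arrays, with a median of -2.73 and a lowest value of -4.34 (Hsp60A, A_09_P030607), against a median of -0.36 over the 9 representative probes. On replicate 2 of lacZ RNAi at 30 °C the same held for 8 of 11 (median -1.53, representative probes 0.00) and on replicate 3 of lacZ RNAi at 25 °C for 5 of 11 (median -0.96), and on none of the other 15 arrays for any. A probe of Hsc70-4, A_09_P165640, shows the pattern: it read 8.06, 12.35 and 10.84 on the 3 lacZ RNAi arrays at 25 °C and 12.28, 10.13 and 12.55 at 30 °C, where the representative probe of the same gene read 17.49, 17.72 and 17.91 and 17.69, 17.76 and 17.90. Representative probes were not all spared. On replicate 1 of lacZ RNAi at 25 °C 3 of the 9 (Hsp83, Hsp60A and DnaJ-1) lay more than 1 unit below their mean. On replicate 3 of that group 1 of the 9 (DnaJ-1) did.

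A similar comparison of dim with bright probes was made for the whole array. Over 2120 genes with 2 or more tested probes whose mean signals lay more than 1 unit apart, the dimmest probe shifted against the brightest by a median of -0.47 on replicate 1 of lacZ RNAi at 25 °C, -0.41 on replicate 3 and -0.27 on replicate 2 of lacZ RNAi at 30 °C. For the 8 chaperone and Hsf genes with 2 or more tested probes the shifts were -2.09, -0.72 and -1.43. These 8 were not limited to probes more than 1 unit apart and included Hsf and DnaJ-1, whose probes lay closer. A shift of -0.26 over all genes was also seen on replicate 3 of H2Av RNAi at 14 °C. Upward shifts over all genes reached 0.52 on replicate 1 and 0.37 on replicate 3 of lacZ RNAi at 30 °C. The low arrays thus had the lowest shifts over all genes, with -0.27 and -0.26 close together, and upward shifts of similar size occurred on other arrays. The difference in size between the 8 genes and all genes was not tested, and what sets the low arrays apart was not tested. Group SDs of the other probes reached 2.33 in lacZ RNAi cells at 25 °C (Hsp60A, A_09_P030607) where the representative probe had 0.60, and of the 8 other probes of Hsp83, Hsc70-4, Hsc70-5, Hsc70Cb, Hsp60A and Droj2 only A_09_P191530 of Hsc70Cb passed a pairwise test. It was 1.84 lower at 25 °C than at 14 °C with lacZ RNAi (SE 0.61, adjusted p = 0.0432) and 2.25 higher with H2Av than with lacZ RNAi at 25 °C (SE 0.61, adjusted p = 0.0149), and both calls were lost without replicate 1 of lacZ RNAi at 25 °C (-1.34, adjusted p = 0.174, and 1.76, adjusted p = 0.0719). The former was also lost without replicate 3 at 25 °C or any array at 14 °C (adjusted p up to 0.108), the latter without replicate 1 (0.0514) or 2 (0.0504) of H2Av RNAi. Without replicate 2 of lacZ RNAi at 30 °C the probe was called higher at 30 °C than at 25 °C (1.70, adjusted p = 0.0173), against the direction of the representative probe.

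**Figure D4:**
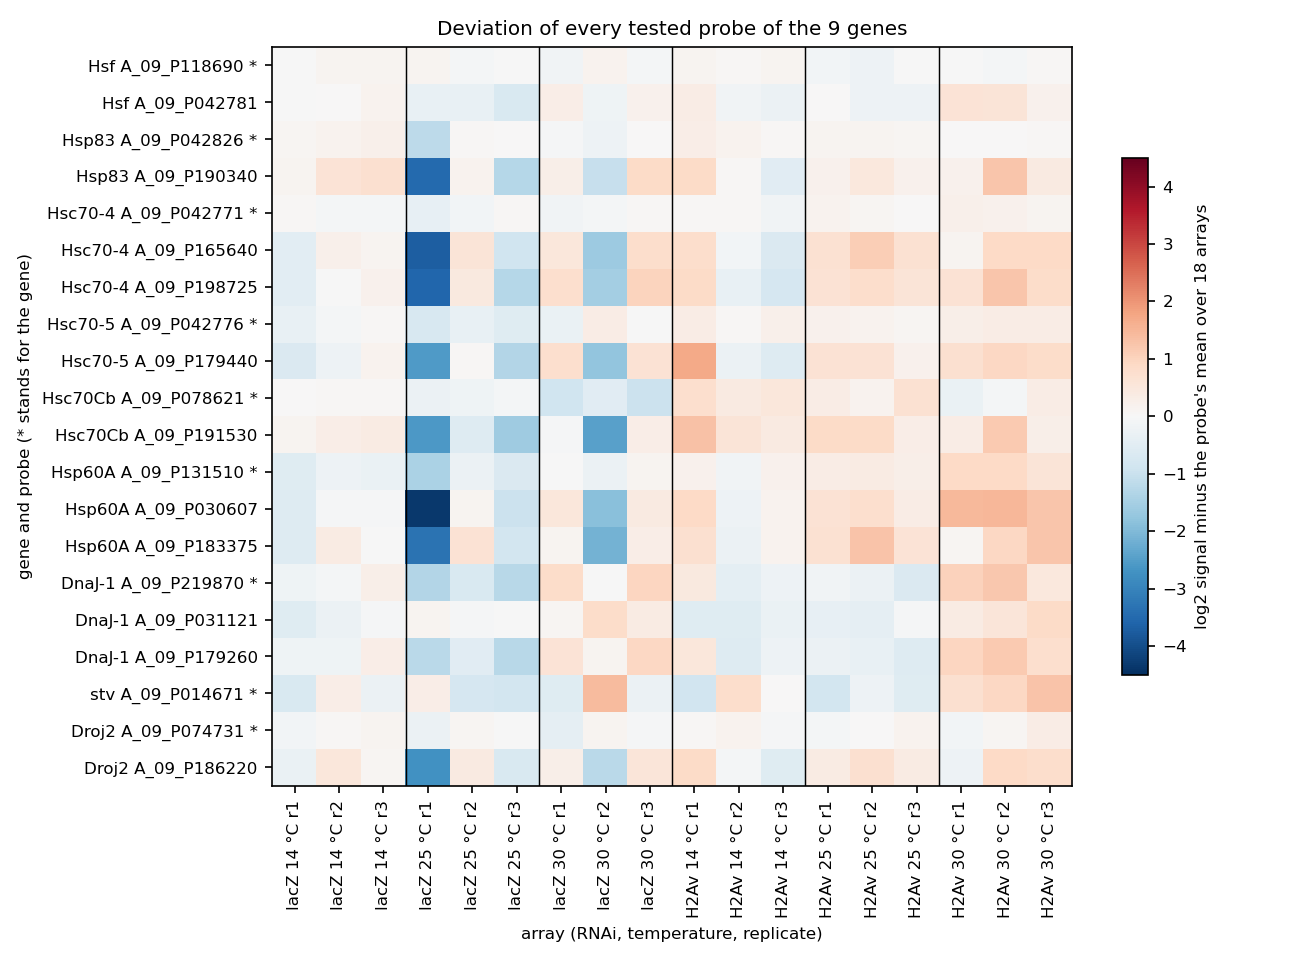
Deviation of log2 signal from the probe's mean over 18 arrays (colour, blue lower and red higher) for the 20 tested probes of the 9 genes (rows, the representative probe of each gene marked by an asterisk) on each array (columns, grouped by RNAi and temperature). The dark blue column is replicate 1 of lacZ RNAi at 25 °C, where 9 of 11 other probes lie more than 1 unit below their mean, followed by replicate 2 of lacZ RNAi at 30 °C with 8 of 11.

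Genes that work with these chaperones were read from 6 lists. Among 12 Hsp90 co-chaperones, all tested, 6 were called between 14 °C and 30 °C with lacZ RNAi (4 higher, 2 lower) and 8 with H2Av RNAi (6 higher, 2 lower), beside 31.9% and 38.4% of all probes, and Hsp83 itself was not called. The list medians were 0.19 and 0.32. Lower at 30 °C were Fkbp59, an FK506-binding immunophilin, by 0.96 in either RNAi group (SE 0.12, adjusted p 3e-05 and 2.5e-05), and PpD3, a protein phosphatase that docks on Hsp90, by 0.69 and 1.02 (adjusted p = 0.0017 and 6.3e-05). Higher was CG1416, an Aha1-like activator of Hsp90, by 0.54 and 0.99 (adjusted p = 0.028 and 0.00053). Between H2Av and lacZ RNAi, Sgt was higher at every temperature, by 1.08, 1.28 and 1.30 (adjusted p = 0.00034, 3.6e-05 and 2.7e-05). At 25 °C 3 of the 12 were called (27.2% of all probes), Sgt higher and Fkbp59 (-0.44, adjusted p = 0.0137) and Dpit47 (-0.55, adjusted p = 0.0251) lower, with a list median of -0.17. Dpit47 was named after its values were seen.

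Of 11 mitochondrial chaperones and proteases, 8 were tested, and 3 were called between 14 °C and 30 °C with lacZ RNAi (1 higher, 2 lower) and 5 with H2Av RNAi (3 higher, 2 lower), beside 31.9% and 38.4% of all probes. CG9920, an Hsp10-type partner of Hsp60, was called lower at 30 °C in both (adjusted p = 0.0165 and 0.0401), but its probe was well above background on 0 of 3 arrays of either 30 °C group, so no size is given. The protease Lon fell by 0.98 and 1.11 (adjusted p = 0.0015 and 0.00048), and Trap1, the mitochondrial Hsp90, rose by 1.30 with H2Av RNAi (adjusted p = 0.00053). After H2Av RNAi at 25 °C, where Hsp60A and Hsc70-5 were higher, 3 of the 8 were called (27.2% of all probes), all higher: Roe1, the GrpE-type exchange factor of mitochondrial Hsp70, by 0.76 (adjusted p = 0.0142), Trap1 by 0.66 (0.045) and Lon by 0.60 (0.0335), and the list median was 0.33.

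The 18 J-domain proteins, all tested, were mixed between 14 °C and 30 °C, with 4 higher and 2 lower in lacZ RNAi cells and 2 higher and 2 lower in H2Av RNAi cells (31.9% and 38.4% of all probes called). jdp was 1.41 higher at 25 °C than at 14 °C with lacZ RNAi (adjusted p = 0.0322), its probe being well above background on 1 of 3 arrays at 14 °C, and aux, the fly auxilin, rose from 14 °C to 30 °C by 0.68 and 1.09 (adjusted p = 0.0016 and 3e-05). Between H2Av and lacZ RNAi they were called 3 times at 14 °C, all higher, 7 times at 25 °C (6 higher, 1 lower) and 4 times at 30 °C, all higher, beside 7.23%, 27.2% and 12.2% of all probes. wus, which encodes the membrane protein Wurst, was higher by 1.79 at 14 °C (adjusted p = 0.001) and by 1.73 at 25 °C (adjusted p = 0.00052), with 0.20 (adjusted p = 0.72) at 30 °C, and CG7130 by 1.07, 0.94 and 1.03 (adjusted p = 0.0359, 0.0261 and 0.0294).

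Of 5 other Hsp70 relatives and exchange factors, 3 were tested. Hsc70-3, the Hsp70 of the endoplasmic reticulum, was 0.80 higher at 25 °C than at 14 °C with lacZ RNAi (adjusted p = 0.0278). It was the 1 called of the 3, beside 21.6% of all probes. Between H2Av and lacZ RNAi at 25 °C 1 of the 3 was called, higher, beside 27.2% of all probes. This was Roe1, which is also in the mitochondrial list. Of the 3 Hsf partners and regulators, 1 was called from 25 °C to 30 °C in each RNAi group, beside 15.2% and 12% of all probes. This was the noncoding heat shock RNA lncRNA:Hsromega, which rose by 0.79 (adjusted p = 0.0152) and 0.76 (adjusted p = 0.0193), the interval in which DnaJ-1 rose too. Trl and CG5446 were called in none of the 9 pairwise comparisons.

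The heat-inducible Hsp genes give the contrast to the 9 genes. Of 13 listed, 11 were tested, and 10 rose between 14 °C and 30 °C with lacZ RNAi and 11 with H2Av RNAi, with list medians of 2.50 and 2.71 (31.9% and 38.4% of all probes called). Hsp23, a small heat shock protein, rose by 5.04 and 4.86 (adjusted p = 2.4e-06 and 2.6e-06), and Hsp22 by 3.13 and 3.52 (adjusted p = 0.00061 and 0.0002). The Hsp70 gene copies, whose near-identical sequences the probes may not tell apart, rose by 2.50 to 2.91 and by 2.70 to 3.40. From 14 °C to 25 °C 3 and 2 of the 11 were called, all higher (list medians 0.30 and 0.43), beside 21.6% and 13.3% of all probes. From 25 °C to 30 °C, where DnaJ-1 also rose, 6 and 9 were called (list medians 2.27 and 2.32), beside 15.2% and 12% of all probes. Between H2Av and lacZ RNAi 6 of the 11 were called at 25 °C (4 higher, 2 lower), beside 27.2% of all probes. At 14 °C and 30 °C 0 were called, beside 7.23% and 12.2% of all probes.

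The genes most like 5 of the members over the 18 arrays were looked up by Pearson correlation, as a description in which all points share arrays, groups and normalization. For DnaJ-1 they were tsh (r = 0.97), Dhx15 (0.95) and CG6511 (0.95), and for stv CG4267 (0.89), blo (0.88) and CG42541 (0.86). For Hsc70-4 they were CG1943 (0.88), Xbp1 (0.87) and oys (0.86), and for Hsf CG40006 (0.83), CG13255 (0.82) and px (0.82). For Hsp83 they were Myc (0.98), CG30020 (0.98) and CG32512 (0.97), values that dropped to 0.80, 0.83 and 0.88 over the 17 arrays without replicate 1 of lacZ RNAi at 25 °C, on which Hsp83 was lowest.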

How the data were processed

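Per the labels, RNA of each sample was hybridised to an Agilent array and read with Feature Extraction. The deposited scanner files give the intensity of each spot (processed signal, already background-corrected). A deposited table of log2 values, per the study's methods quantile normalized by the authors, served as an alternative; its column medians lie between 7.19 and 7.20, its values rank most like the median signal of the scanner files, and its scale beyond that is not given in the sources used here.

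Starting from the processed signal, log2 values of the 43603 non-control spots were quantile normalized (limma 3.58.1, R 4.3.3), as the study's methods state for its arrays. Outlier spots (42 to 78 an array) were dropped and spots of a probe reduced to their median. Probes well above background on 2 of 3 arrays of any group were kept. One linear model held 6 group means over 18 arrays (prior degrees of freedom, 2.35), with p-values adjusted by Benjamini-Hochberg. No saturation occurred, and the number of arrays limits the precision. Gene symbols came from RefSeq through locus tags and covered 60.6% of probes. HspBP1, Hsp70Ab and Hsp70Bbb of the lists matched no probe. The fit was tested on simulated data.

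Replicate numbers are shared by all groups. Deviations from the group mean of same-numbered arrays correlated above 0.1 in every pair for 14 °C against 30 °C with lacZ RNAi (0.19 to 0.25) and for all 3 temperature comparisons with H2Av RNAi (0.11 to 0.46), not for the other 5 pairwise comparisons. The block was therefore fitted as an alternative, beside 75th percentile scaling, normexp correction, the deposited table, no filter, a 2-fold minimum, array weights, the compared arrays alone, the median of a gene's probes and leaving out each array. Slide could not be a block, since each slide held 1 group. Leaving out both arrays that stood apart, a block within each RNAi group, and the averages over RNAi group or temperature were added after the values had been seen. The 9 genes and the lists were chosen with earlier results of these data known. Named genes are the 9, His2Av, at most 4 called members of a list, largest pairwise change first (the Hsp70 copies together), and the 3 genes most correlated with each of 5 members; Lsp2 and Fbp1 and other markers came from a separate list.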

Additional observations from a re-analysis of the deposited data

How the results depend on the processing

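Over the single-probe results, 5469 alternative values stayed on their side of the threshold (283 of them, all uncalled, changed sign), 130 lost a call, 144 gained one and 1 reversed. With a 2-fold minimum the calls fell to 0 (14 °C to 30 °C, each RNAi group and their average), 0 (14 °C to 25 °C, average), 1 and 2 (25 °C to 30 °C, lacZ RNAi and average) and, for H2Av against lacZ RNAi, to 1 at 25 °C, 0 at 30 °C and 0 in the average. With array weights they rose to 3 and 2 (lacZ RNAi, 14 °C to 30 °C and to 25 °C), 4 (H2Av RNAi, 25 °C to 30 °C) and 4 (H2Av against lacZ RNAi at 30 °C). The median of a gene's probes gave 2 (lacZ RNAi and average, 14 °C to 25 °C), 1 and 3 (25 °C to 30 °C, lacZ RNAi and average), 1 (H2Av RNAi, 14 °C to 30 °C) and 1 (H2Av against lacZ RNAi at 30 °C), and reversed Hsc70Cb from 25 °C to 30 °C in lacZ RNAi cells to 0.12 (adjusted p = 0.798); the cause was not tested. Fits on the compared arrays alone, which hold fewer samples, gave 0, 2 and 3 (25 °C to 30 °C, lacZ RNAi, H2Av RNAi and average) and 0 (H2Av against lacZ RNAi at 25 °C and at 30 °C).

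75th percentile scaling, which moved the median of all probes by 0.255 between the RNAi groups and by 0.428 at 25 °C, gave 2 calls (14 °C to 25 °C, average) and 5 (RNAi groups, average), Hsc70-4 (0.49) and Droj2 (0.35) being added, values that include that shift. Without both arrays that stood apart, 2 (lacZ RNAi, 14 °C to 30 °C) and 4 (H2Av against lacZ RNAi at 30 °C) were called. Leaving out 1 array gave 1 to 2 calls (lacZ RNAi, 14 °C to 30 °C), 0 to 4 (to 25 °C), 1 to 3 (from 25 °C), 0 to 3 and 0 to 1 (H2Av RNAi, from 14 °C and from 25 °C to 30 °C), 0 to 1 (RNAi groups at 30 °C), 0 to 1 (average, 14 °C to 25 °C) and 3 to 5 (average, 25 °C to 30 °C). The replicate block raised the count for 25 °C to 30 °C with H2Av RNAi to 2 (stv), which the block within each RNAi group did not (1, stv at adjusted p = 0.0571), and, where numbers pair, changed no other call of a representative probe; elsewhere it ended the call of A_09_P191530 of Hsc70Cb from 14 °C to 25 °C with lacZ RNAi (adjusted p = 0.0596).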
